A study of Canis lupus familiaris with 18 samples.

Results

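The 10 genes described here mark macrophages and their scavenger receptors: SPI1, CSF1R, CD163, MSR1, MRC1, TYROBP, FCER1G, CD68, LAPTM5 and AIF1. They were found by symbol among the 29993 genes of the raw count table, and each matched 1 row. They had been chosen by their high counts in 1 library, French bulldog 6, so the values of that library are given apart from those of the other 17 and without a test. RNA from high grade oligodendroglioma (HGO), a malignant glial brain tumor, had been sequenced for 18 pet dogs, to ask how the tumors of French bulldogs differ from those of other brachycephalic breeds. The tumors lay in the prosencephalon, were resected before any trial treatment, fixed in formalin and embedded in paraffin. Of the libraries, 11 were from French bulldogs, while boxers (4) and Boston terriers (3) served as the comparison dogs. No animal carried an engineered allele or an experimental agent, and the labels give no ages.

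Macrophages of the brain comprise the resident microglia, the macrophages of the brain's borders and cells that arrive from blood monocytes. SPI1 encodes the transcription factor that starts and holds the program of these cells, and CSF1R encodes the receptor for the growth factors CSF1 and IL34, on which most of them depend to survive. Their surface receptors bind debris, lipoproteins, sugars and haemoglobin complexes and carry them to lysosomes, and many of their immune receptors signal through the small adaptors TYROBP and FCER1G. In gliomas such cells are a known part of the tumor tissue.

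Library totals ran from 8212452 to 13169880 counts, so that 3 counts corresponded to 0.228 to 0.365 CPM, the count scaled by the library total. French bulldog 6, with 11891139 counts, stood apart in the levels of oligodendrocyte lineage genes from the other libraries with the same tissue label. The authors reported that a pathologist reviewed stained sections and diagnosed HGO in every case. French bulldog 6 also lay apart in their clustering of the samples. Their review of its records, including storage, processing and histopathology, found no clear biological reason, and they kept it in their test. In the other 17 libraries the oligodendrocyte lineage factors OLIG1, OLIG2 and SOX10 had at least 314, 87.7 and 153 normalized CPM, whereas French bulldog 6 had 4, 0 and 2 counts of them. The 0 counts allow up to 3 counts, 0.312 normalized CPM in this library, for counting error alone. PDGFRA, the growth factor receptor of oligodendrocyte precursors, had 42.3 normalized CPM in French bulldog 6 and 163 to 4975 in the others. French bulldogs 2 and 8 carry 1 case number in their library names, and the patient list of the study gives them the same age, sex and tumor lobe. They were counted as 2 dogs, and values with their counts summed are given for CD163, for the relation with SPI1 and among the processing alternatives. All 10 genes passed the filter on low counts in the 17 libraries, with 15 to 873 counts a library. Levels below are CPM normalized by the trimmed mean of M values (TMM) over 18 libraries, mean ± SD, and they are compared within a gene only, because they are not divided by gene length.

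**Figure D1:**
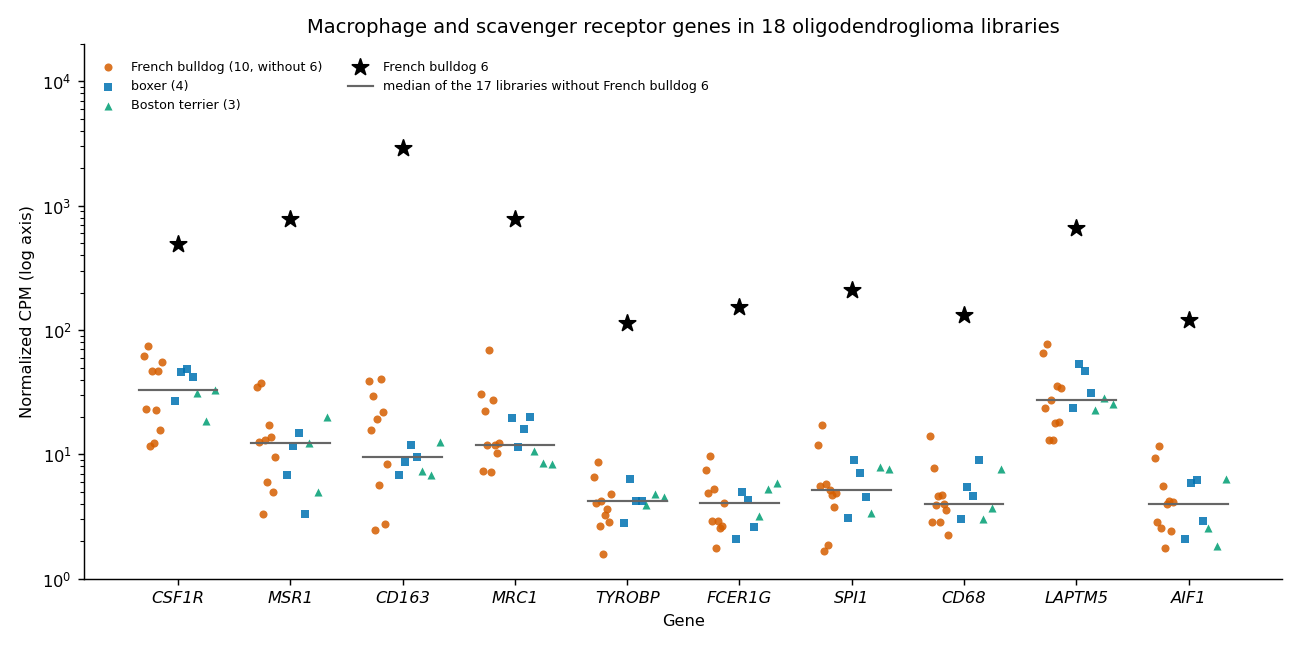
Normalized CPM (log axis) of the 10 genes in each of 18 libraries, with the breeds apart and French bulldog 6 as a star; the grey line is the median of the other 17 libraries. The star lies above every other library for all 10 genes, and the French bulldogs overlap both other breeds for all 10. Boxers and Boston terriers overlap for 9, all but MRC1, and the share of all genes without such overlap was not counted.

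The lineage factor SPI1 (ENSCAFG00000008723) had 1.67, 5.0 and 17.3 normalized CPM as the lowest, median and highest level of the 10 French bulldogs without French bulldog 6. Its levels were 3.11, 9.05, 7.06 and 4.54 in boxers 1, 3, 4 and 5 and 3.39, 7.86 and 7.62 in Boston terriers 2, 6 and 7. All comparison dogs lay inside the French bulldog range, whose top was French bulldog 11 and whose bottom was French bulldog 2. The mean was 6.24 ± 4.77 (n = 10) in French bulldogs and 6.09 ± 2.37 (n = 7) in comparison dogs, a log2 fold change of 0.07 (SE 0.42, adjusted p = 0.970, edgeR quasi-likelihood test).

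The growth factor receptor CSF1R (ENSCAFG00000018219) ran from 11.7 through a median of 35.2 to 74.2 normalized CPM in the 10 French bulldogs. Boxers 1, 3, 4 and 5 had 26.7, 46.1, 49.0 and 42.3, and Boston terriers 2, 6 and 7 had 31.0, 18.6 and 32.9. Of the 10 French bulldogs, 3 lay above all 7 comparison dogs and 3 lay below all of them. The boxer mean of 41.0 ± 9.91 (n = 4) exceeded the Boston terrier mean of 27.5 ± 7.77 (n = 3), with overlapping ranges. French bulldogs and comparison dogs differed by a log2 fold change of 0.12 (SE 0.38, adjusted p = 0.945).

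CD163 (ENSCAFG00000013968), the scavenger receptor for complexes of haemoglobin and haptoglobin, spread the most of all 10 genes between its highest and lowest library, 16.6-fold over the 17 libraries. The 10 French bulldogs ran from 2.45 (dog 2) through a median of 17.4 to 40.6 normalized CPM (dog 5). Boxers 1, 3, 4 and 5 had 6.81, 8.77, 11.9 and 9.62, and Boston terriers 2, 6 and 7 had 7.34, 6.86 and 12.5. The comparison dogs thus kept within a narrow band, while 6 of the 10 French bulldogs lay above all 7 of them and 3 lay below all of them. Of the 16403 genes tested, 3.61% had at least 6 French bulldogs above every comparison dog. The mean was 18.5 ± 14.2 in French bulldogs and 9.12 ± 2.36 in comparison dogs. The log2 fold change of CD163 was 1.05 (SE 0.50, 95% CI -0.0012 to 2.11), with p = 0.0502 and adjusted p = 0.461 in edgeR's quasi-likelihood test, so that the difference did not pass the threshold. The size and the unadjusted p of CD163 moved with the processing. With French bulldogs 2 and 8 summed the log2 fold change was 1.15 (SE 0.45, 95% CI 0.21 to 2.09, edgeR p = 0.0190, adjusted p = 0.546), and in DESeq2 it was 1.05 (SE 0.48, p = 0.0286, adjusted p = 0.338). It was 0.55 in limma-voom (SE 0.57, p = 0.343, adjusted p = 0.754), and the difference in mean log2 CPM was 0.53. Of 33 fits of the 17 libraries with these tools, 11 had an unadjusted p under 0.05 for CD163 and 0 an adjusted p under 0.05.

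The lipoprotein and debris receptor MSR1 (ENSCAFG00000006830) ran from 3.35 through a median of 12.7 to 37.3 normalized CPM in the 10 French bulldogs. It had 6.81, 11.7, 15.0 and 3.35 in boxers 1, 3, 4 and 5 and 12.3, 5.02 and 19.9 in Boston terriers 2, 6 and 7. French bulldogs 1 and 11 were the top pair, with 35.2 and 37.3, and every other French bulldog lay below the highest Boston terrier. The log2 fold change of MSR1 was 0.56 (SE 0.48, adjusted p = 0.699), and 0.31 without French bulldog 11.

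The mannose receptor MRC1 (ENSCAFG00000004496), which takes up glycoproteins, ran from 7.17 through a median of 12.2 to 69.2 normalized CPM in the 10 French bulldogs. It had 19.5, 11.5, 16.0 and 19.9 in boxers 1, 3, 4 and 5 and 10.6, 8.61 and 8.36 in Boston terriers 2, 6 and 7. No Boston terrier reached the lowest boxer, in groups of 3 and 4, and the share of all genes so separated was not counted. French bulldog 3 stood alone at the top, since the next highest library, French bulldog 1, had 30.6. The coefficient of variation over the 17 libraries was 83.3%, the highest of the 10 genes, and the log2 fold change between French bulldogs and comparison dogs was 0.67 (SE 0.43, adjusted p = 0.587), and 0.26 without French bulldog 3.

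The adaptor TYROBP (ENSCAFG00000054854), which carries the activation motif for receptors such as TREM2, varied the least of the 10 genes, with a coefficient of variation of 39.2%. It ran from 1.58 through 3.85 to 8.73 normalized CPM in the 10 French bulldogs. It had 2.81, 6.31, 4.20 and 4.21 in boxers 1, 3, 4 and 5 and 3.95, 4.77 and 4.55 in Boston terriers 2, 6 and 7. The means of 4.24 ± 2.08 and 4.40 ± 1.05 differed by less than either SD. FCER1G (ENSCAFG00000012878), the signaling chain of Fc receptors, ran from 1.77 through 3.51 to 9.72 in the 10 French bulldogs and from 2.1 through 4.29 to 5.88 in the 7 comparison dogs.

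CD68 (ENSCAFG00000016641), a glycoprotein of lysosomes, ran from 2.24 through 3.95 to 14.1 normalized CPM in the 10 French bulldogs and from 3.01 through 4.67 to 9.08 in the 7 comparison dogs. LAPTM5 (ENSCAFG00000011247), a lysosomal membrane protein of blood cells, ran from 13.1 through 25.4 to 77.1 and from 22.8 through 28.4 to 52.9. AIF1 (ENSCAFG00000032693), an actin-binding protein used to stain microglia and macrophages, ran from 1.77 through 4.07 to 11.7 and from 1.84 through 2.92 to 6.38. For each of these genes both groups overlapped, and French bulldogs lay on both sides of all comparison dogs, with 1 above and 3 below for CD68, 2 above and 4 below for LAPTM5, and 2 above and 1 below for AIF1.

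Without French bulldog 6, none of the 10 genes passed the test between French bulldogs and comparison dogs in edgeR, DESeq2 or limma-voom. The quasi-likelihood test in edgeR called 3 of 16403 genes at an adjusted p under 0.05, which is 0.0183% of them, and 0 of the 10. At an unadjusted p under 0.05 it passed 0 of the 10 as well, against 10.8% of all genes (6.92% as higher and 3.93% as lower in French bulldogs). The median log2 fold change of the 10 genes was 0.14, with 8 of the 10 above 0, against 55.4% of all genes above 0, and limma-voom put CSF1R, SPI1 and LAPTM5 of these 8 below 0. For the 7 genes other than CD163, MSR1 and MRC1, the 95% confidence intervals had their lower ends between -0.81 for SPI1 and -0.55 for AIF1 and their upper ends between 0.62 for TYROBP and 1.19 for AIF1, which bound the differences these libraries leave possible. Exact permutation tests of the log2 CPM, over all 19448 ways to assign the 2 groups, gave two-sided p-values from 0.363 for CD163 to 0.868 for FCER1G. Bulk libraries cannot tell fewer macrophages from less RNA of these genes per macrophage.

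With French bulldog 6 put back, the fold changes are a description, since that library chose the genes, and their tests are not given. The same 7 comparison dogs and 10 French bulldogs were shared by both fits. The log2 fold change of CD163 was then 4.94, that of MSR1 3.01 and that of MRC1 2.75, and the other 7 genes lay between 1.15 for CSF1R and 2.15 for FCER1G. Over all genes, edgeR called 1 of 16495 (0.00606%) between breeds in this fit. In DESeq2, whose default replaces outlying counts in groups of this size, the log2 fold change of CD163 with all 18 libraries was 1.00.

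**Figure D2:**
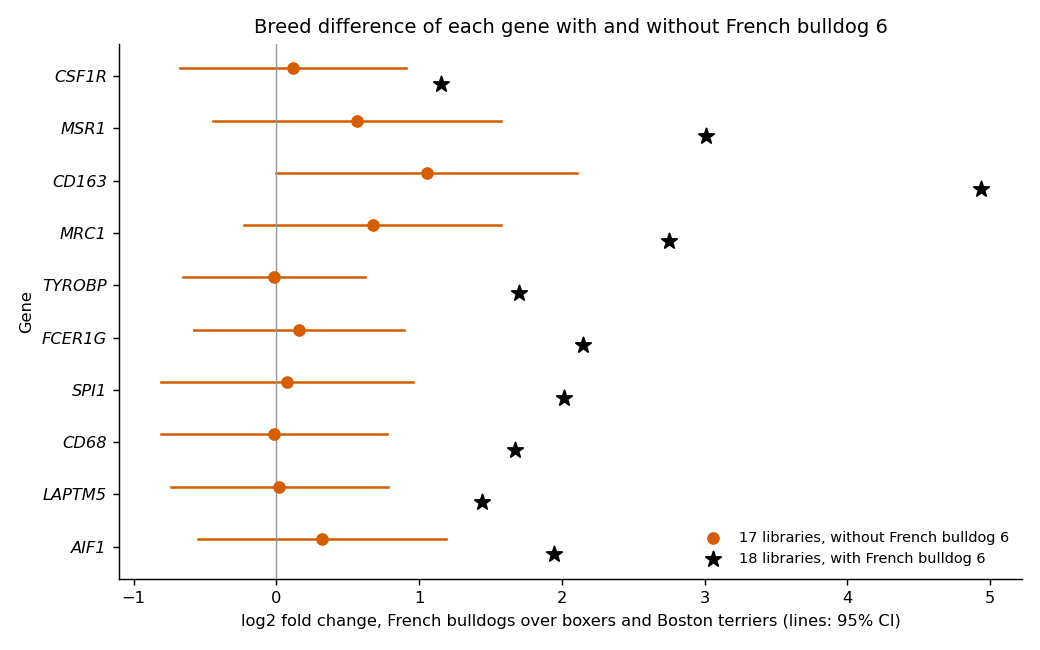
Log2 fold change (x axis) of the 10 genes between French bulldogs and comparison dogs, for the 17 libraries without French bulldog 6 (circles, with 95% confidence intervals as lines) and all 18 (stars, values alone). Without it the fold changes lay between -0.02 and 1.05, and with it between 1.15 and 4.94.

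The same libraries were high or low for most of the 10 genes. French bulldog 11 had the highest level of 7 of the 10 genes, and French bulldog 1 was among the 3 highest libraries for all 10. French bulldog 4 was among the 3 lowest for 9 of the 10, and French bulldogs 2 and 8, the pair with 1 case number, came next above it by the mean z-score of the 10 genes. The comparison dogs lay between these ends. French bulldogs 2 and 8 differed by a median of 0.19 on the log2 scale and were closer to each other than the median of the 135 other pairs of libraries for 9 of the 10 genes. The exception was SPI1, with 15 and 37 counts.

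SPI1 was taken as the reference, and its log2 CPM was correlated with that of each of the 16402 other genes tested. Of the 9 other genes, 6 passed an adjusted p under 0.05 over all genes with a positive r, against 1.27% of all genes. TYROBP had the closest relation, with Pearson's r = 0.917 and Spearman's rho = 0.882 (n = 17, each with permutation p = 1e-05, the smallest that the 100000 permutations can give, and adjusted p = 0.00746 and 0.0328). FCER1G had r = 0.885 and rho = 0.895 (n = 17, permutation p = 1e-05 for both, adjusted p = 0.00746 and 0.0328). LAPTM5 had r = 0.880 and rho = 0.770 (n = 17, permutation p = 1e-05 and 0.00038, adjusted p = 0.00746 and 0.0556). These 3, together with AIF1 (r = 0.803, rho = 0.765), CSF1R (r = 0.751, rho = 0.635) and MSR1 (r = 0.745, rho = 0.667), made up the 6, at adjusted permutation p of 0.0257, 0.0416 and 0.0441 for r of the last 3. By rho these 3 did not pass (adjusted permutation p = 0.0671, 0.167 and 0.141), nor did LAPTM5, so that 2 calls were left, TYROBP and FCER1G.

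The remaining 3 genes did not pass. CD163 had r = 0.682 and rho = 0.662 (adjusted permutation p = 0.0771 and 0.144). It did pass once the mean of each group was subtracted (r = 0.725, adjusted permutation p = 0.0416) and also without French bulldog 5 (r = 0.754). CD68 had r = 0.628 and rho = 0.620 (adjusted permutation p = 0.118 and 0.186). MRC1 had the loosest relation with SPI1, with r = 0.327 and rho = 0.262 (adjusted permutation p = 0.507 and 0.703). For comparison, the median r of all genes with SPI1 was -0.01 and the 95th percentile was 0.598.

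Part of this count was lost when 2 libraries were left out, which also left fewer libraries to test. Without French bulldogs 11 and 2, the libraries farthest from the median of SPI1, TYROBP (r = 0.908) and FCER1G (r = 0.906) still passed, at adjusted permutation p = 0.0410 for both. The other 7 genes then had r between 0.267 for MRC1 and 0.800 for LAPTM5, and the calls of LAPTM5, AIF1, CSF1R and MSR1 were lost. Leaving out French bulldog 1 or French bulldog 11 alone left 3 calls, and summing French bulldogs 2 and 8 left 4. Within the 10 French bulldogs, r lay between 0.534 for MRC1 and 0.936 for MSR1 with 0 of 9 calls, against 0.128% of all genes called with a positive r. Within the 7 comparison dogs, FCER1G had r = 0.909 and TYROBP r = 0.850, without a count of calls, because the smallest permutation p of 7 libraries is 0.000198 and a call over 16402 genes was hardly within reach. MRC1 there had r = -0.51, opposite in sign to the French bulldogs, a difference that was not tested. The relation of SPI1 to library depth did not pass (r = 0.372, rho = 0.380, n = 17, permutation p = 0.140 and 0.132, adjusted over 3 library measures p = 0.342 and 0.253).

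**Figure D3:**
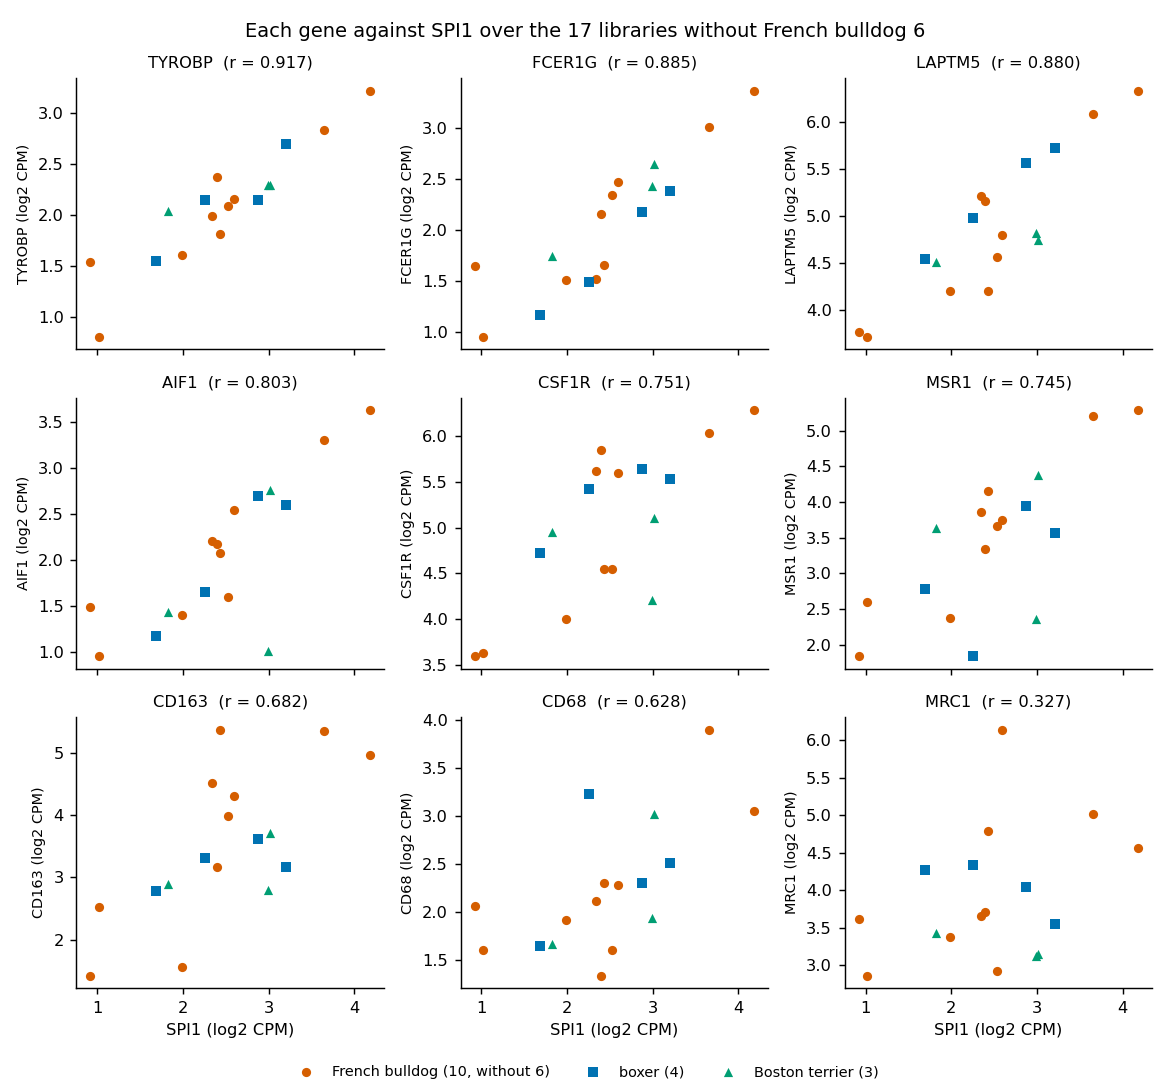
Log2 CPM of each of the 9 other genes (y axis) against that of SPI1 (x axis) over the 17 libraries without French bulldog 6; each point is 1 library and r is Pearson's. TYROBP, FCER1G and LAPTM5 follow SPI1 most closely, with r of 0.917, 0.885 and 0.880, whereas MRC1 scatters, with r of 0.327 and French bulldog 3 far above the rest.

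Among themselves, the 45 pairs of the 10 genes had Pearson's r from 0.293 to 0.917, with a median of 0.670, given as a description because the pairs share libraries. The closest pairs after TYROBP with SPI1 were CSF1R with LAPTM5 (r = 0.899) and TYROBP with LAPTM5 (r = 0.896). The 21 pairs without CD163, MSR1 and MRC1 had a median r of 0.790, and the 21 pairs between those 3 scavenger receptors and the other 7 genes had a median of 0.560. CD163 and MSR1 followed each other (r = 0.828), while MSR1 and MRC1 did so less (r = 0.366).

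The genes most like the 10 were then sought among 11533 other genes with a symbol, by Pearson's r with the mean z-score of the 10 over the 17 libraries, as a description. They were the antiviral factor TRIM22 (r = 0.940), the MHC class II invariant chain CD74 (0.940), the leukocyte integrin ITGAL (0.939), the potassium channel KCNQ1 (0.933) and the lectin LGALS9 (0.933). SAMD9L (0.917), the complement component C1QA (0.915), the leukocyte migration gene DOCK2 (0.910), the signaling adaptor PIK3AP1 (0.908) and the cytokine IL18 (0.905) followed. The median r of all candidates was 0.00. By Spearman's rho, 4 of the 10 remained among the 10 highest.

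French bulldog 6 had the highest level of all 10 genes, with 61009 counts of them in sum against 504 to 3780 in the other libraries. This is the contrast on which the genes were picked, and 20.8% of the 16495 genes tested stood above all 17 other libraries in it while 29.9% stood below all of them. CD163 had 27819 counts and 2897 normalized CPM, 301-fold the median of the other 17 libraries and 71.3-fold the highest of them. Against the median of the other 10 French bulldogs alone the fold of CD163 was 166. Both other scavenger receptors followed, MRC1 with 789 normalized CPM (65.9-fold the median of the 17) and MSR1 with 785 (63.7-fold).

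The lineage factor SPI1 had 209 normalized CPM in French bulldog 6, 40.5-fold the median of the others. The adaptors FCER1G and TYROBP had 154 and 115, which were 37.6-fold and 27.4-fold. CD68 with 133, AIF1 with 121 and LAPTM5 with 661 were 33.3-fold, 30.3-fold and 24.2-fold. CSF1R had the smallest fold of the 10, 14.9-fold with 490 normalized CPM, and its level was 6.61-fold that of the highest other library. The median of the 10 folds was 35.5. All 10 stayed above every other library with DESeq2's size factors, with library totals alone and without the gene of highest count.

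The balance among the 10 genes also differed in French bulldog 6. Each gene's count was divided by that of SPI1 in the same library and set against the median of the 17 others, as a description. CD163 per SPI1 was 6.55 times that median, above the highest of the others, 3.72 in French bulldog 5 and 2.20 in French bulldog 7. MSR1 per SPI1 was 1.71 times the median, just above the highest other library at 1.66. CSF1R per SPI1 was 0.353 times the median and LAPTM5 per SPI1 0.541, both just below the lowest of the others, 0.355 in Boston terrier 6 and 0.574 in Boston terrier 7. MRC1 per SPI1, at 1.46, lay inside the range of the others, whose highest was French bulldog 3 at 4.64. FCER1G per SPI1 was 1.09 times the median. French bulldog 2, with 15 counts of SPI1, had the highest ratio for CD68, TYROBP, FCER1G, AIF1 and LAPTM5.

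**Figure D4:**
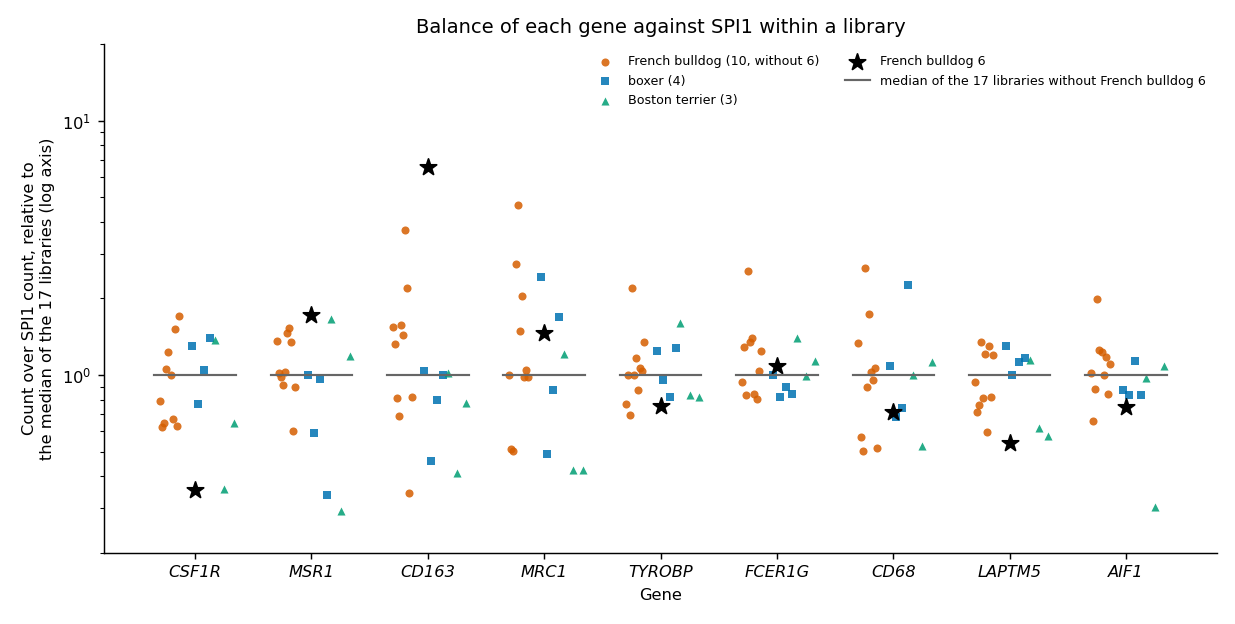
Count of each of the 9 other genes over the SPI1 count of the same library, relative to the median of the 17 libraries without French bulldog 6 (log axis). In French bulldog 6 (star) CD163 lies at 6.55, above the other 17 libraries, whose highest is 3.72. CSF1R at 0.353 lies almost level with their lowest, 0.355, while MRC1 at 1.46 and FCER1G at 1.09 lie among them.

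The genes around the 10 were described by lists. Their calls with SPI1 used Pearson's r over the 17 libraries, where 1.27% of all genes were called with a positive r. Calls of the list genes by Spearman's rho, or without the libraries farthest from the median of SPI1, are not given. Both ligands of CSF1R were present in the 17 libraries, CSF1 with a median of 20.3 normalized CPM (11.4 to 62.7) and IL34 with 8.53 (3.26 to 16.7). In French bulldog 6, CSF1 had 58.1 and IL34 had 3.64, both inside those ranges, beside the 14.9-fold of their receptor. Of the 7 tested genes of the list of ligands and growth factor receptors, 0 were called between breeds, and 2 were called with SPI1, the receptor chains CSF2RA (r = 0.874) and CSF2RB (r = 0.869), named after their values were seen. CSF3R, the receptor of neutrophil growth factor, had a log2 fold change of -2.64 (SE 0.80, adjusted p = 0.365), and FLT3 and KIT had -0.12 and -0.49 as r with SPI1.

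Of 11 tested genes for receptors, kinases and other signaling proteins that work with TYROBP and FCER1G, 6 were called with SPI1, against 1.27% of all genes. Among them were the phosphatases PTPN6 (r = 0.881) and INPP5D (r = 0.789), the kinase SYK (r = 0.788) and the receptor TREM2 (r = 0.770). The median r of the list was 0.770, and the kinase LYN had r = 0.633 (adjusted permutation p = 0.113). In French bulldog 6, 10 of the 11 stood above all other libraries, against 20.8% of all genes. The exception was TREM2, with 5.52 normalized CPM against 2.00 to 13.1 in the others. SYK was 28.9-fold and LYN 28.5-fold the median of the others. Between breeds 0 of the 11 were called, also at an unadjusted p.

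Of 10 tested transcription factors of the lineage, 1 was called with SPI1, IKZF1 (r = 0.807, named after its value was seen), against 1.27% of all genes. The median r was 0.55. IRF8 and the cholesterol sensor NR1H3 had 12.1-fold and 21.5-fold the median of the others in French bulldog 6, MITF 3.85-fold, and MEF2C 1.53-fold, inside the range of the others. Of the 10, 9 stood above all others there, against 20.8% of all genes. Between breeds 0 of the 10 were called, and NR1H3 had a log2 fold change of -0.43 (SE 0.23, adjusted p = 0.503).

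Other uptake receptors did not share 1 pattern. Of 12 tested, 10 stood above all others in French bulldog 6, where LRP1 was 1.92-fold and SCARB2 1.48-fold the median. SCARB1 was 0.740-fold there, and SCARA3, at 0.184-fold, was below all others. Over all genes, 20.8% stood above and 29.9% below all others. The lipid receptor CD36, at 175-fold, and MARCO, with 2442 counts against 0 to 35, were named after their values were seen. None of the 12 were called with SPI1 or between breeds, against 1.27% and 0.0183% of all genes.

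All 15 lysosomal genes that passed the filter without French bulldog 6 stood above the others in it, against 20.8% of all genes. The protease CTSB was 44.4-fold, LAMP2 8.39-fold, the saposin precursor PSAP 6.34-fold and CD63 3.62-fold the median. ACP5 passed the filter only with French bulldog 6, where it had 114 counts against 0 to 20, and is not counted. Of the 15 in the 17 libraries, CTSB (r = 0.775) and CTSZ (r = 0.754, named after its value was seen) were called with SPI1, against 1.27% of all genes. The median r was 0.68. The log2 fold changes between breeds were above 0 for 15 of the 15, with a median of 0.28 and 0 called, against 55.4% of all genes above 0. Of 10 genes of heme and iron handling, 6 stood above all others in French bulldog 6, against 20.8% of all genes, with the ferritin chains FTL and FTH1 22.3-fold and 14.9-fold. The heme transporter SLC48A1, at 0.384-fold, stood below all others (named after its value was seen). HMOX1, which breaks down the heme that CD163 brings in, was 3.05-fold the median, with 75.7 normalized CPM against a highest of 73.7 elsewhere, and its r with SPI1 over the 17 libraries was 0.0693. The iron exporter SLC40A1 lay inside the range of the others. SLC11A1 (r = 0.827, named after its value was seen) was the 1 gene of the list called with SPI1, against 1.27% of all genes.

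Genes of 2 macrophage kinds were read in French bulldog 6. All 6 tested genes of border macrophages stood above the other 17 libraries, with CD209 61.9-fold, LYVE1 56.8-fold, CCR1 56.0-fold and COLEC12 3.47-fold the median. Of the 6 tested genes of homeostatic microglia, 2 stood above all others and 2 below all others, against 20.8% and 29.9% of all genes, and their log2 differences from the median ran from -3.87 to 2.52. The microglial factor SALL1 had 3.02 normalized CPM against 27.1 to 85.1 in the others, and the fractalkine receptor CX3CR1 had 2.50 against 11.6 to 55.9. P2RY12, with 6.87, lay inside the range of the others, while TMEM119, with 7.71, and GPR34, with 43.9, lay above it. In the 17 libraries 0 of the 6 microglial genes were called with SPI1 (median r = 0.48), against 1.27% of all genes. Of the border genes CCR1 was called (r = 0.905) while CD209 had r = 0.0496.

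**Figure D5:**
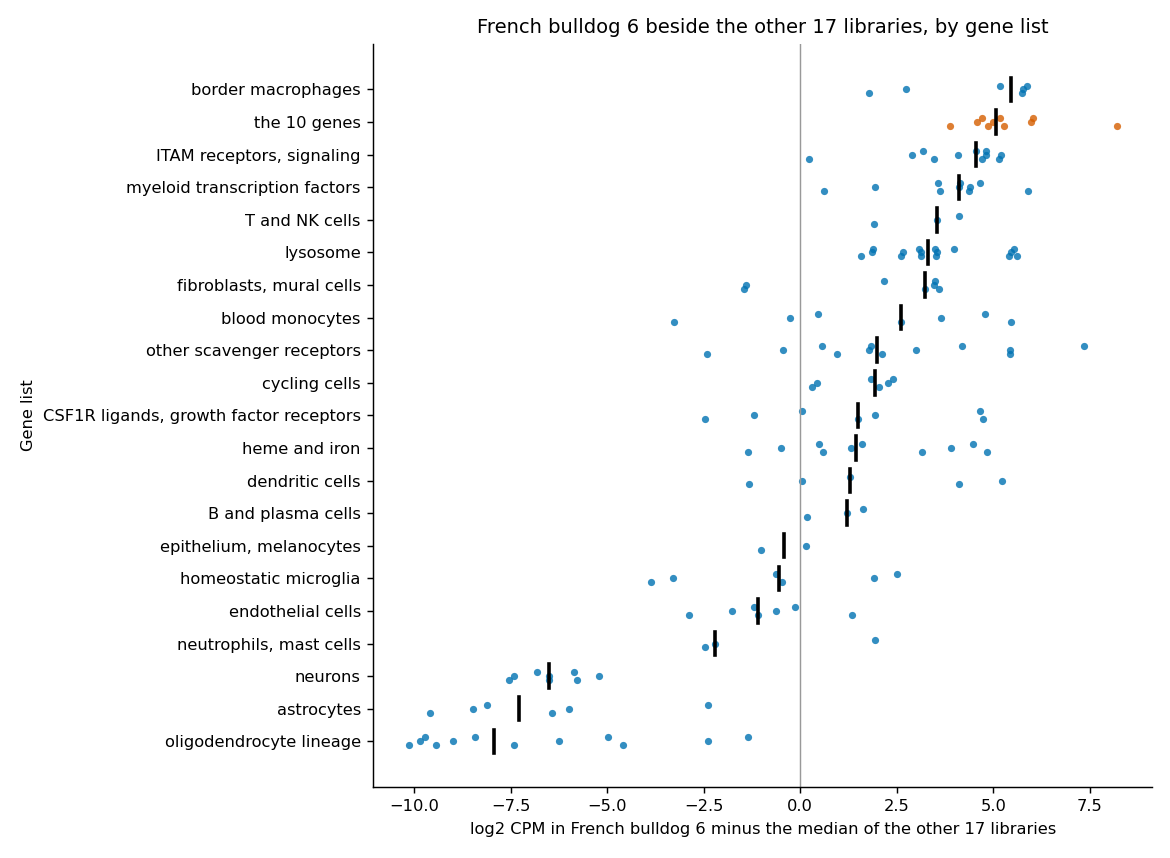
Difference in log2 CPM between French bulldog 6 and the median of the other 17 libraries (x axis) for the tested genes of each list (points), with the list's median as a bar. The 10 genes have a median of 5.08 and border macrophages 5.46, homeostatic microglia -0.54 with points from -3.87 to 2.52, and the oligodendrocyte lineage -7.92, beside a median of -0.22 over all genes tested.

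Markers of other cells moved with these values, and their part in them was not tested. In French bulldog 6, 11 of 12 genes of the oligodendrocyte lineage, 6 of 6 of astrocytes and 8 of 8 of neurons stood below all other libraries, against 29.9% of all genes. Their summed levels were 177, 22.5 and 0.937 normalized CPM, against 2900 to 9303, 518 to 5471 and 66.6 to 1393 in the others. For the counts above all others that follow, the share of all genes was 20.8%. Of 7 genes of blood monocytes, 4 stood above all others, among them LYZ at 44.9-fold, while VCAN at 0.105-fold stood below all. Of 7 genes of fibroblasts and mural cells, 3 also stood above all others, with COL3A1 11-fold, while the mural cell genes PDGFRB and ACTA2 had 0.378-fold and 0.356-fold the median, inside the range of the others. Of 6 of cycling cells, 3 stood above all others, and MKI67 was 5.34-fold but inside the range of the others. Of T cells, 3 genes were tested and 2 stood above all others, with CD2 18.5-fold, and CD3E had 214 counts against a highest of 6 elsewhere. Of 5 dendritic cell genes tested, 3 stood above all others, with CD83 38.7-fold, whereas FLT3 was 1.04-fold and ZBTB46, at 0.392-fold, stood below all. Of 3 B and plasma cell genes 2 stood above all others, CD79A at 2.32-fold and JCHAIN at 3.12-fold. None of the genes tested stood above all others among 7 of endothelial cells, 3 of neutrophils and mast cells and 2 of epithelium, and 3, 2 and 0 of them stood below all others. The other genes of the last 2 lists had too few counts to be tested, among them MMP9, with 27 counts against a highest of 24 elsewhere (named after its values were seen), and TYR and MLANA, which mark melanocytes, had 0 counts.

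Among the 17 libraries, SPI1 moved also with genes of fibroblasts and mural cells. Of 7, 2 were called with it, against 1.27% of all genes. They were DCN (r = 0.768, named after its value was seen) and COL1A2 (r = 0.751, adjusted permutation p = 0.0493). The median r of the list was 0.70. The endothelial list had a median r of 0.56 and the cycling list -0.35, with 0 called in each, and the oligodendrocyte lineage had -0.10. The summed level of the fibroblast and mural list lay between 38.4 and 854 normalized CPM in the 10 French bulldogs and between 135 and 332 in the 7 boxers and Boston terriers, and that of the 10 genes between 54.2 and 296 and between 90.8 and 165. Of the 3 T cell genes tested, CD4 had a log2 fold change of -1.72 (SE 0.76, adjusted p = 0.440), CD2 of 1.03 (SE 0.51, adjusted p = 0.475) and CD5 of 0.56 (SE 0.42, adjusted p = 0.642). The blood monocyte list had a median log2 fold change of -0.54, with 0 called. That median is the value of VCAN, which had 831 to 5555 normalized CPM in the 17 libraries, beside 3.10 to 33.9 for LYZ of the same list.

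The neighbours of the 10 genes on the chromosome were also read in French bulldog 6. By the gene order of the RefSeq dog annotation (assembly UU_Cfam_GSD_1.0, another build than that of the counts), 10 genes next to a member were tested. Of these, 2, EIF4A1 beside CD68 and TMEM236 beside MRC1, stood above all other libraries in French bulldog 6, at 2.74-fold and 2.53-fold the median, against 20.8% of all genes. The median fold of the 10 neighbours was 0.881. CD163 and MSR1 each overlapped an unnamed RefSeq gene, so that their counts may share reads with it.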

How the data were processed

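RNA from 18 formalin-fixed, paraffin-embedded tumors was sequenced with a ribodepletion kit for degraded RNA. The authors trimmed the paired-end reads with Trimmomatic (0.33), mapped them with HISAT2 (2.1.0) to the dog genome canFam6 and counted them per gene with featureCounts, and the deposited values are raw counts. The strand setting of the counting is not given in the sources used here, so that reads of overlapping genes could not be told apart. Each library was labelled as 1 dog, and p-values measure the spread between libraries. The 10 genes and the gene lists were chosen with earlier results of these data known.

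Counts were filtered with filterByExpr, normalized by TMM and tested with the robust quasi-likelihood F test of edgeR (4.0.16, R 4.3.3), with Benjamini-Hochberg adjustment over 16403 genes (17 libraries) or 16495 genes (18 libraries) and a threshold of 0.05. SEs were taken as the absolute log2 fold change over the square root of F. The study's test, DESeq2 (1.42.0), and limma-voom (limma 3.58.1) were alternatives. Correlations used log2 CPM with a prior count of 2 and two-sided permutation tests (100000 permutations, or all orders for 7 libraries), adjusted over 16402 genes, in Python (3.11.15). The edgeR and correlation steps were tested on simulated data. Named genes were the 10 members, the 10 genes most like them, of each list up to 4 genes of highest mean level in the 17 libraries, and lineage and partner genes set with the lists. Of 1911 small RNAs known by symbol, none were left out of the main fit, and 1 gene without a symbol took 17.4 to 33.4% of counts in every library. Alternatives were another normalization, filter, test, comparison breed and library series, each library left out, and French bulldogs 2 and 8 summed. No coordinates or sequences were printed, since no genome of the build of the counts was used here.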

Additional observations from a re-analysis of the deposited data

Results flagged for a closer look

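Each of the 10 genes was looked at for a library far from the rest of its group, in 3 groups (the 10 French bulldogs without French bulldog 6, the 7 comparison dogs and the 4 boxers), by the gap to the nearest other library over the range of the group, a measure that chance takes past its limit in about 1 in 20 groups. Of the 30 groups so tested, 2 passed. French bulldog 1 had 14.1 normalized CPM of CD68, the highest of the 10 French bulldogs, with the next at 7.73. French bulldog 3 had 69.2 normalized CPM of MRC1, with the next at 30.6.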

How the results depend on the processing

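No alternative run called any of the 10 genes between breeds in the 17 libraries. The count of all genes called in the 17 libraries was 62 in DESeq2, 1 with Boston terriers alone as the comparison, and 0 with boxers alone, with the comparison libraries named S18 to S21 or S1 to S3 alone, or with French bulldogs 2 and 8 summed, and 0 to 9 with 1 library left out. With 18 libraries it was 58 in DESeq2, 2 in limma-voom or with upper quartile normalization, 0 with at least 10 counts in every library, with French bulldogs 2 and 8 summed, with boxers alone, with S18 to S21 or with S1 to S3, and 0 to 7 with 1 library left out. With the replicate block, the number in the titles as a pair term, 0 genes were called in either set. The numbers did not pair the dogs, since the correlations of the 6 pairs ran from -0.46 to 0.20.

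CD163, MSR1, MRC1 and AIF1 had log2 fold changes above 0 under every alternative run, but of changing size. The replicate block gave 0.72, 0.15, 0.52 and 0.0079 for them, and limma-voom 0.55, 0.41, 0.39 and 0.26. With 1 library left out, CD163 ran from 0.82 to 1.16, MSR1 from 0.31 (without French bulldog 11) to 0.81, MRC1 from 0.26 (without French bulldog 3) to 0.80 and AIF1 from 0.071 (without French bulldog 11) to 0.49. MRC1 was 0.33 against boxers alone and 1.2 against Boston terriers alone. In the 17 libraries, limma-voom gave -0.090 for CSF1R, -0.15 for SPI1 and -0.16 for LAPTM5, and the difference in mean log2 CPM was -0.11, -0.14 and -0.18. The replicate block gave -0.41, -0.39 and -0.42 for them and -0.11 for FCER1G. Boxers alone gave -0.14 for CSF1R and -0.24 for LAPTM5. Boston terriers alone gave 0.085 for CD68 and -0.10 for FCER1G. S18 to S21 gave 0.32 for CD68, -0.036 for CSF1R and -0.16 for LAPTM5, and S1 to S3 gave -0.082 for SPI1 and -0.040 for FCER1G. LAPTM5 was -0.027 with upper quartile normalization and -0.026 with at least 10 counts, and TYROBP was 0.0036 with dogs 2 and 8 summed. With 1 library left out, CD68 ran from -0.35 to 0.17, CSF1R from -0.055 to 0.22, TYROBP from -0.20 to 0.083, SPI1 from -0.25 to 0.18, LAPTM5 from -0.22 to 0.13 and FCER1G from -0.051 to 0.28. With 18 libraries, DESeq2 gave -0.042 for CD68, -0.033 for TYROBP and -0.0056 for LAPTM5, and with 1 library left out CD68 ran from -0.016 to 1.86 and TYROBP from -0.016 to 1.82, both lowest without French bulldog 6. The causes were not tested.

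Genes called with SPI1 were 2 by Spearman's rho, 2 without the 2 libraries farthest from its median, 0 in French bulldogs alone, 0 in comparison dogs alone, where 7 libraries hardly allow a call, and 3 to 7 with 1 library left out. MRC1 had r = -0.51 in comparison dogs alone. Of the 10 genes most like them, 4 were shared by Spearman's rho. The lowest count of any of the 10 genes in a library was 15, which limits the precision of single low values.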
